A study of Mus musculus with 11 samples.

Results

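Mouse pancreatic cancer (PDAC) lines were barcoded, pooled and followed in the lungs of vehicle-treated and 6OHDA-treated mice, and the line that gave the most reads is described here. Its members are all barcodes that begin with the 4 bases AACC, which were taken to be the identifier of a line because of the layout of the cassette; the name of the line was not used here. AACC was chosen by its reads: summed over the 11 libraries it had 59984462 reads, or 50.4% of all reads, and ranked 1 of 243 identifiers. The next identifier, GTTG, had 28300061 reads (23.8%) and lay just outside the rule. AACC comprised 18103 of the 105528 distinct barcodes and 24320 of the 135360 barcode listings (17.97%). That it led the ranking is how it was picked and is not a result.

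The pool had been injected into the vein of syngeneic 129/Bl6 F1 mice, and the lungs with their metastases were taken 3 weeks later. Before injection, 1 group of mice had received vehicle (6 samples) and the other 6OHDA (6-hydroxydopamine, 5 samples). The labels do not say that each sample is a separate mouse, so the p-values refer to the spread from sample to sample, part of which may be technical. A lung below means the lung sample of 1 library, and recurrence is between samples. Libraries held 6436469 to 15665492 reads. Vehicle samples 3 and 4, the deepest of their group with 15665492 and 13410390 reads, stood apart from the other vehicle samples. After thinning to equal depth they held 6485 and 6873 colonies of lines other than AACC, against 1471 to 2617 in the other 4 vehicle samples and 4754 to 9408 in the 6OHDA samples. Results are therefore also given without them, a choice made after the data had been seen. Since these samples lay nearest to the 6OHDA samples, leaving them out widens most differences by construction.

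6OHDA is a toxin that enters sympathetic nerve terminals through their catecholamine uptake and destroys them. In a barcoded pool, each tagged cell passes a random sequence to its descendants. The number of distinct barcodes in a lung then reflects how many tagged clones settled and persisted there, and the reads of a barcode reflect how far that clone grew. Cells that had divided between tagging and injection share a barcode, so a barcode is a clone and not always a single settled cell.

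Each AACC barcode had 20 bases: the identifier, then 12 random bases, with a fixed G at positions 8, 12, 16 and 20. The largest AACC barcode of each library is given because these clones form the top of the size range and show how differently large clones recur between samples. The identifier is in capitals.
Vehicle sample 1: AACCcgagtaggggggaggg
Vehicle sample 2: AACCgatgtccgacagctgg
Vehicle sample 3: AACCtctgacggtgcgaccg
Vehicle sample 4: AACCtcagggtgtccgtttg
Vehicle sample 5: AACCcctggttgataggttg
Vehicle sample 6: AACCgccgtctggcggacag
6OHDA sample 1: AACCtcagtttgatggaagg
6OHDA sample 2: AACCatagggtggaggatcg
6OHDA sample 3: AACCttcggctggacgtctg
6OHDA sample 4: AACCacagtttgttagtagg
6OHDA sample 5: AACCagagttagatggttag
No barcode led in more than 1 library. The largest clone held 176089, 230522, 169096, 74002, 142195 and 148643 reads in vehicle samples 1 to 6. It held 70775, 94956, 70240, 86014 and 334767 reads in 6OHDA samples 1 to 5. As a part of the AACC reads of its library it ranged from 1.34 to 4.09% in vehicle and from 1.26 to 5.49% in the 6OHDA group, so no lung's AACC reads came mainly from 1 clone.

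The AACC share of reads was lower on average in the 6OHDA group, with overlap between the groups. It was 64.6, 63.3, 51.5, 41.3, 67.6 and 63.1% in vehicle samples 1 to 6, and 43.9, 54.05, 45.3, 42.2 and 39.5% in 6OHDA samples 1 to 5. Vehicle samples 1, 2, 5 and 6 lay above every 6OHDA sample, while vehicle samples 3 and 4 lay within the 6OHDA range. The 95% Wilson interval of each share was at most 0.0362 points to either side; such intervals cover counting error only, since PCR reads are not independent molecules. In edgeR's quasi-likelihood test on reads per identifier with TMM scaling, AACC had a log2 change of -0.80 (SE 0.25, adjusted p = 0.0680). It was not called, nor was any of the 104 identifiers tested (0% called; 34 had an unadjusted p under 0.05). The share itself differed by -13.6 points (exact permutation p = 0.0433, 0.173 after adjustment over the 104 identifiers). The log2 change was -0.38 without TMM scaling (edgeR adjusted p = 0.0758), where the median over all identifiers was 0.53 against 0.09 with it. The 104 identifiers include rare ones: 1 of them had 225 reads in all and no listing above 4 reads. Whether every identifier is a line was not tested. The TMM scaling and the shares called rest on all 104. AACC passed with DESeq2 (log2 change -0.97, adjusted p = 0.0253), which called 24 of the 104 identifiers (23.1%). It also passed in edgeR without vehicle sample 4 (log2 change -0.89, adjusted p = 0.0471, 22.5% of identifiers called) and without 6OHDA sample 2 (log2 change -0.94, adjusted p = 0.0490, 8.74% called).

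More AACC colonies were counted on average in the 6OHDA lungs, but the difference did not pass the test. A colony is a barcode with at least 10 reads after every library was thinned at random to 6436469 reads. Vehicle samples 1 to 6 held 536, 746, 1474, 1397, 494 and 758 AACC colonies, and 6OHDA samples 1 to 5 held 2059, 1257, 1655, 795 and 1769. Vehicle samples 1, 2, 5 and 6 lay below every 6OHDA sample, and 3 of the 5 6OHDA samples lay above every vehicle sample. Before thinning the counts were 494 to 1517 in vehicle and 810 to 2145 in the 6OHDA group. The log2 change was 0.74 (SE 0.42, edgeR adjusted p = 0.193), with 0 of 38 identifiers called (0%; 8 had an unadjusted p under 0.05). The median log2 change over the 38 identifiers was 1.09, above that of AACC. Scaled to all colonies of a sample by TMM, the AACC change turned to -0.68 (edgeR adjusted p = 0.139), so its direction holds for the count itself and not relative to the other lines. DESeq2 called 1 of the 38 identifiers (2.63%), which was not AACC (log2 change 0.74, DESeq2 adjusted p = 0.172).

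Set against the other lines of the same lung, AACC supplied a smaller part of the colonies of the 6OHDA group on average. Per 100 colonies of all other lines there were 36.1, 28.5, 22.7, 20.3, 33.6 and 34.9 AACC colonies in vehicle samples 1 to 6. In the 6OHDA group the values were 21.9, 24.6, 25.7, 16.7 and 20.6 in samples 1 to 5. Again vehicle samples 3 and 4 overlapped with the 6OHDA samples and the other 4 vehicle samples did not. The log2 difference was -0.41 (SE 0.18) and did not pass (exact permutation p = 0.0606, 0.101 after adjustment over 5 ratios). Without vehicle sample 4 it was -0.51 and passed (exact permutation, adjusted p = 0.0397), and without vehicle samples 3 and 4 it was -0.61 (exact permutation, adjusted p = 0.0265).

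A typical AACC colony was smaller in the 6OHDA group. The median AACC colony held 351, 217, 99.9, 89.6, 343 and 258 RPM in vehicle samples 1 to 6 (RPM, reads per 1000000 reads of the library). It held 67.7, 75.4, 67.1, 101 and 58.9 RPM in 6OHDA samples 1 to 5. Vehicle samples 1, 2, 5 and 6 lay above every 6OHDA sample, and 6OHDA samples 1, 2, 3 and 5 lay below every vehicle sample. On the log2 scale the groups differed by -1.44 (SE 0.38), a 2.72-fold lower geometric mean of the medians, and passed the threshold (exact permutation p = 0.0130, 0.0260 after adjustment over 4 size and evenness values). The RPM scale has a fixed total, so that sizes fall where colonies are more numerous; the size is not independent of the colony number. Without vehicle samples 3 and 4 the difference was -1.98 (exact permutation, adjusted p = 0.0317). It missed the threshold when 6OHDA sample 1, 2, 3 or 5 was left out (log2 differences of -1.42, -1.46, -1.41 and -1.37, exact permutation, adjusted p = 0.0571 in each case) and when colonies needed at least 100 reads (log2 difference -1.04, exact permutation, adjusted p = 0.121).

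The median colony was also smaller as a part of the line's own reads. The read minimum of a colony still applied to the whole thinned library here, and so varied with the AACC share of it. The median colony made up 0.0542, 0.0343, 0.0194, 0.0217, 0.0507 and 0.0409% of the AACC reads in vehicle samples 1 to 6. It made up 0.0155, 0.0139, 0.0148, 0.0240 and 0.0149% in 6OHDA samples 1 to 5. All 6OHDA samples except sample 4 lay below every vehicle sample. This difference was -1.08 in log2 (SE 0.29, exact permutation p = 0.0130, adjusted p = 0.0260), a 2.11-fold lower value. With the AACC reads of every library thinned to the same total, 3992309 reads, before colonies were counted, it was -1.14 (exact permutation, adjusted p = 0.0260). It did not pass without 6OHDA sample 1, 2, 3 or 5 (log2 differences of -1.06, -1.02, -1.04 and -1.04, exact permutation, adjusted p = 0.0571 in each case) or at a minimum of 100 reads (log2 difference -0.67, exact permutation, adjusted p = 0.121).

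Mean AACC colony size, which large clones dominate, was 817 ± 435 RPM (SD, n = 6) in vehicle and 334 ± 140 RPM (SD, n = 5) in the 6OHDA group. The log2 change in limma was -1.17 (SE 0.46, adjusted p = 0.0609), and none of the 30 identifiers passed (0%; 15 had an unadjusted p under 0.05). Their median log2 change was -1.10, close to that of AACC. AACC passed without vehicle sample 3 (log2 change -1.37, limma adjusted p = 0.0300, 48.3% of identifiers called), vehicle sample 4 (log2 change -1.42, limma adjusted p = 0.0160, 55.2% called) or 6OHDA sample 4 (log2 change -1.36, limma adjusted p = 0.0455, 40% called), and without thinning (log2 change -1.05, limma adjusted p = 0.0160, 48.4% called).

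Colonies of 10 to 99 thinned reads made up 11.9, 11.4, 17.2, 16.6, 16.2 and 13.9% of the AACC colonies in vehicle samples 1 to 6. They made up 22.3, 23.8, 24.7, 17.99 and 25.5% in 6OHDA samples 1 to 5, and the groups did not overlap. This class was picked after its values were seen and was not tested. At the other end, colonies of 10000 or more thinned reads numbered 126, 120, 61, 46, 125 and 126 in vehicle and 32, 79, 51, 80 and 39 in the 6OHDA group. They carried 77.0, 69.4, 36.0, 32.9, 82.2 and 65.4% of the AACC colony reads in vehicle, and 22.6, 49.5, 35.4, 58.3 and 26.7% in the 6OHDA group. Vehicle samples 1, 2, 5 and 6 thus had fewer AACC colonies in all but more of the largest size than any 6OHDA sample, and vehicle samples 3 and 4 did not.

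No difference in the evenness of the line was detectable with all samples. The effective number of colonies is the number of equal colonies that would give the same concentration of reads. It was 116, 124, 231, 259, 99.1 and 177 in vehicle samples 1 to 6, and 343, 162, 252, 157 and 177 in 6OHDA samples 1 to 5. The groups differed by 0.40 in log2 (SE 0.32, exact permutation p = 0.264, adjusted p = 0.264). The 10 largest barcodes held 12.01 to 23.8% of the AACC reads in vehicle (6 samples) and 11.3 to 19.6% in the 6OHDA group (5 samples), a difference in means of -3.39 points (SE 2.29; exact permutation p = 0.190, adjusted p = 0.254). The effective number differed by 0.22 without 6OHDA sample 1 (exact permutation, adjusted p = 0.533), and the 10 largest barcodes by -2.24 points without vehicle sample 5 (exact permutation, adjusted p = 0.455). Without vehicle samples 3 and 4, left out after the data had been seen, the differences were 0.72 in log2 and -5.48 points. Both then passed (exact permutation, adjusted p = 0.0476 for each). In every lung 50% of the AACC reads came from a small set of clones, from 41 in vehicle sample 5 to 160 in 6OHDA sample 1.

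GTTG, the identifier at rank 2, differed from AACC in the size of its colonies. The median AACC colony was 3.70, 3.00, 1.16, 0.693, 2.89 and 3.10 times the median GTTG colony of the same library in vehicle samples 1 to 6. The ratio was 0.686, 0.695, 0.630, 0.679 and 0.692 in 6OHDA samples 1 to 5. AACC colonies were thus the larger in every vehicle lung except sample 4, and the smaller in every 6OHDA lung. The log2 ratio differed by -1.62 (SE 0.40, exact permutation p = 0.00866, 0.0173 after adjustment over 2 such ratios). This comparison was added after the values had been seen. The difference was -2.22 without vehicle samples 3 and 4 (exact permutation, adjusted p = 0.0317). It missed the threshold at a minimum of 100 reads (log2 difference -0.77, exact permutation, adjusted p = 0.0866). Both medians come from the same library, so the scaling to RPM cancels in the ratio. Both were still taken over colonies above a read minimum, and the difference moved with it. It was -2.34 at a minimum of 2 reads and -1.34 at 30. The GTTG median itself was 97.5 ± 22.0 RPM (SD, n = 6) in vehicle and 110 ± 24.0 RPM (SD, n = 5) in the 6OHDA group. That of CCTT, the identifier at rank 3, was 32.9 ± 14.7 RPM (SD, n = 6) in vehicle and 12.7 ± 3.92 RPM (SD, n = 5) in the 6OHDA group. In mean colony size the log2 change in limma was -0.39 for GTTG, -1.17 for AACC and -1.32 for CCTT. The median over the 30 identifiers was -1.10, so the smaller size was not particular to AACC.

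Reads and colonies of AACC relative to GTTG were lower on average in the 6OHDA group, and neither difference passed. AACC had 7.39, 11.8, 2.74, 1.17, 17.2 and 7.001 reads per GTTG read in vehicle samples 1 to 6, and 1.30, 2.37, 1.35, 1.35 and 1.11 in 6OHDA samples 1 to 5. Vehicle sample 4 alone lay within the range of the 6OHDA samples. The log2 ratio differed by -1.98 (SE 0.61, exact permutation p = 0.0260, adjusted p = 0.0649). AACC colonies per GTTG colony were 4.32, 3.17, 1.54, 1.16, 6.42 and 3.35 in vehicle and 1.26, 1.47, 1.30, 1.09 and 1.13 in the 6OHDA group. This log2 ratio differed by -1.20 (SE 0.38, exact permutation p = 0.0260, adjusted p = 0.0649). Without vehicle sample 4 the differences were -2.43 for reads and -1.46 for colonies, and both passed (exact permutation, adjusted p = 0.0198 for each). Without vehicle samples 3 and 4 they were -2.81 and -1.74 (exact permutation, adjusted p = 0.0265 for each).

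CCTT, the identifier at rank 3, gave ratios that stayed closer together. AACC had 8.31, 10.1, 11.2, 10.7, 11.7 and 8.04 reads per CCTT read in vehicle samples 1 to 6 and 13.3, 11.02, 12.99, 8.25 and 11.5 in 6OHDA samples 1 to 5. The log2 difference was 0.18 (SE 0.15, exact permutation p = 0.260, adjusted p = 0.325). It was 0.12 without vehicle sample 6 or without 6OHDA sample 1, and 0.29 without 6OHDA sample 4 (exact permutation, adjusted p from 0.0952 to 0.575). AACC colonies per CCTT colony ranged from 1.10 to 1.49 in vehicle and from 0.952 to 1.48 in the 6OHDA group. Their log2 difference was 0.03 (SE 0.14, exact permutation p = 0.801, adjusted p = 0.801), with a sign that turned on leaving out vehicle sample 5 or 6OHDA sample 1, 3 or 5, without thinning and at a minimum of 2 reads. The median AACC colony was larger than the median CCTT colony in all 11 libraries, 5.74 to 8.03 times in vehicle and 5.35 to 6.71 times in the 6OHDA group. The log2 difference of that ratio was -0.17 (SE 0.10, exact permutation p = 0.121, adjusted p = 0.121). It passed at a minimum of 30 reads (log2 difference -0.26, exact permutation, adjusted p = 0.0260) and turned to 0.05 at a minimum of 2 reads.

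Many AACC clones were found in more than 1 sample. The 12940 AACC colonies carried 7645 distinct barcodes. Of these, 4752 were colonies in a single sample, 1631 in 2, 638 in 3, 336 in 4, 149 in 5 and 139 in 6 or more. The 2893 recurring barcodes (37.8%) made up 63.3% of the AACC colonies, against 82.4% of the colonies for GTTG and 56.7% for CCTT. No AACC barcode was a colony in all 11 samples. Of the barcodes found in exactly 2 samples, 243 were in vehicle samples alone, 537 in 6OHDA samples alone and 851 in 1 of each. The 6OHDA samples held more AACC colonies on average (1507, against 901 in vehicle). The counts per group were neither tested nor set against those of all lines.

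The clone found most widely, chosen after its values were seen, was a colony in 10 of 11 samples.
Most widely found: AACCttggaaggactgtctg
It had 1, 11812, 1900, 28817, 14464 and 3942 reads in vehicle samples 1 to 6 and 7337, 14704, 1654, 232 and 6904 in 6OHDA samples 1 to 5. Among lungs in which it was a colony its reads ranged from 232 to 28817, and the groups overlapped. The 139 barcodes in 6 or more samples held 13.3% of all AACC reads, from 8.98% in 6OHDA sample 5 to 18.999% in vehicle sample 5.

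The largest clone of a sample was in some cases found widely and in others was a colony nowhere else. Of the 11, 7 were colonies in at least 2 other samples, and 4 were colonies in their own sample alone. AACCttcggctggacgtctg, the largest of 6OHDA sample 3 with 70240 reads, was larger still in vehicle sample 1 with 117391 reads and reached 62686 in vehicle sample 4. AACCcctggttgataggttg, the largest of vehicle sample 5, had 34854 reads in vehicle sample 2 and 19796 in 6OHDA sample 5. By contrast AACCagagttagatggttag, with 334767 reads in 6OHDA sample 5, had 0 to 2 reads in every other library. AACCgatgtccgacagctgg, with 230522 reads in vehicle sample 2, had 1 read in vehicle sample 3 and 0 elsewhere.

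Taken over all cases of a large AACC barcode in another library, most values were 0, but most large barcodes were a colony in at least 1 other library. An AACC barcode reached 50000 or more reads in 124 instances, and its value in another library was 0 in 67.1% of 1240 cases, 1 to 9 reads in 5.48% and 10 or more in 27.4%. These instances came from 120 distinct barcodes, and 16 had no colony in any other library. Of the 8445 listings with at least 10 reads (before thinning) whose barcode recurred at that level, 101 (1.20%) had less than 1 read per 1000 of the reads in the barcode's highest library. With a minimum of 10 reads, only a barcode with more than 10000 reads in some library can give such a listing. Of the 7840 AACC barcodes that reached 10 reads, 1316 reached 10000, so the low share is partly set by the minimum.

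Recurring AACC colonies were larger than those found in 1 sample only, in all 11 libraries. The ratio of their median sizes was 1.40 to 2.08 in vehicle and 1.40 to 2.33 in the 6OHDA group. Pooled over libraries, the median colony was 58.3 RPM for barcodes in 1 sample, 91.4 in 2, 113 in 3, 144 in 4, 167 in 5, 187 in 6, 290 in 7, 216 in 8, 284 in 9 and 507 for the 1 barcode in 10. The order breaks at 8 samples, and 62 barcodes in all were in 7 or more. Libraries with different median sizes contribute unequally to these classes: 2862 of the barcodes in 1 sample were from the 6OHDA group and 1890 from vehicle. A larger clone is more easily detected, and how much this adds to the pattern was not tested. For barcodes shared by a pair of libraries, size in one was only weakly related to size in the other, with Spearman's rho of 0.10 as the median over 55 pairs (range -0.23 to 0.36), given as a description over 34 to 402 shared barcodes.

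With all samples, no difference in recurrence between the groups was detectable. The part of AACC colonies found in at least 1 other sample was 69.6, 65.5, 61.9, 61.6, 67.6 and 71.9% in vehicle samples 1 to 6 and 59.2, 65.6, 62.7, 67.0 and 59.9% in 6OHDA samples 1 to 5. The 95% Wilson intervals reached at most 4.11 points to either side. They take each colony as an independent trial and do not measure the spread between samples. The difference of -3.49 points (SE 2.28) did not pass (exact permutation p = 0.165, adjusted p = 0.169). Overlap between a pair of samples was taken as the shared barcodes over their mean colony number (Sorensen overlap). It averaged 11.9% within vehicle, 18.2% within the 6OHDA group and 13.6% between the groups. Pairs of the same group exceeded pairs of different groups by 0.79 points (exact permutation p = 0.169, adjusted p = 0.169), and without 6OHDA sample 2 the difference turned to -0.03 points. Without vehicle samples 3 and 4, left out after the data had been seen, the differences were -6.29 and 3.41 points. Both then passed (exact permutation, adjusted p = 0.0159 for each). Recurrence was there counted among the remaining samples only, and leaving out the vehicle samples nearest to the 6OHDA group widens most differences by construction. The recurrence of a sample is counted against all other samples, so the values of the samples are not independent of each other. The 6OHDA samples also held more colonies on average, and the part of colony number in the recurrence and in the overlap was not tested.

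No single AACC clone was called in edgeR. Of 1203 barcodes with at least 10 reads in at least 5 samples, 307 were AACC, and none of the 1203 passed (0%). An unadjusted p under 0.05 was found for 5 of the 307, all with more reads in the 6OHDA group, and for 35 of all 1203. With DESeq2 it was 12 of the 307 (8 higher in the 6OHDA group) and 86 of all 1203. In edgeR on barcodes with at least 10 reads in 3 samples it was 178 of 1301 (136 higher) and 706 of all 5236. In edgeR without 6OHDA sample 3 it was 2 of 205 (0 higher) and 7 of all 824. A barcode can pass these filters through 1 group alone, so the filter itself affects the directions. Of the AACC barcodes that were colonies in exactly 3 samples, 102 were in 6OHDA samples alone and 34 in vehicle samples alone. These counts were not set against those of all lines, and the 6OHDA samples held more AACC colonies on average. Of the 307, 144 had a log2 change above 0 and 163 below, with a median of -0.17, against 0.70 over all 1203. The balance turned with the filter of 3 samples, where 703 AACC barcodes lay above 0 and 598 below (median 0.29, against 1.01 over all 5236). DESeq2 called 24 of the 1203 (2%), among them 1 AACC barcode, which also had the lowest edgeR p of the AACC barcodes (edgeR adjusted p = 0.243, DESeq2 adjusted p = 3.22e-06).
Called by DESeq2 alone: AACCtacgactgcatggtag
It was listed in none of the 6 vehicle libraries and had 5306, 46, 13157, 115 and 22 reads in 6OHDA samples 1 to 5. Its reads thus differed widely among the 6OHDA samples, and it passed the filter only through that group.

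The random bases of AACC barcodes differed between well-read and barely read listings. Of the 18103 barcodes, 10263 (56.7%) never reached 10 reads in any library, and listings under 10 reads held 0.0187 to 0.0383% of the AACC reads of a library. Over the 12 random positions, barcodes that reached 10 reads had 17.3% C and 27.8% G. Those that did not had 30.3% C and 19.5% G. The separation held in each library: C made up 16.9 to 17.8% in listings of 10 or more reads and 27.7 to 31.1% in listings under 10 reads. Among the barcodes that reached 10 reads, composition changed little with size, with 17.6% C where the highest count was 10 or more but under 1000 reads and 16.96% where it was 10000 or more. T made up 33.7% of the random bases in these AACC barcodes and 29.1% in those of all other lines. The other lines shifted the same way in C and G. Their barcodes that reached 10 reads had 18.2% C and 30.7% G, against 22.2% C and 27.1% G over all their barcodes.

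Few barely read listings lay close to a well-read AACC barcode in these counts, which were taken after clustering. Clustering may already have joined such neighbours, so the low numbers do not tell where barely read listings come from. Their origin was not tested. In a library, 1 to 13 of the 650 to 1357 AACC listings under 10 reads lay 1 base from a listing of 10 or more. All 12 identifiers that differ from AACC by 1 base were present, with 112083 reads in 6778 listings. Of these, 17 listings, with 7605 reads, shared their other 16 bases with an AACC barcode of the same library. Among the identifiers with such listings, AATC had 81689 reads and 3 of them, ACCC 4029 reads and 3, and AAGC 2887 reads and 3.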

How the data were processed

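Barcodes were read from 11 lung libraries. Per the labels' protocols, spike-in cells were mixed into each weighed tissue, and 32 µg of its DNA entered a PCR of 27 cycles. The deposited files hold the count of reads for each barcode after clustering, per the file headers. No source used here names the clustering tool or its settings. The spike-in was not used, so all sizes are relative to reads and none is a cell number. It was not removed either, so any spike-in reads stay in the library totals and may count among the other lines. The 4 listings with an undetermined base were dropped.

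Libraries were thinned without replacement to 6436469 reads, and a colony needed 10 thinned reads (1.55 RPM). Effective number, largest barcodes and read ratios used unthinned counts. Reads per identifier (at least 10 reads in 3 samples of 1 group), colonies per identifier (at least 5 in 1 sample, equal library sizes) and reads per barcode were tested with edgeR 4.0.16, and mean colony size with limma 3.58.1. In limma a sample with fewer than 5 colonies of an identifier had no value there; AACC had a value in all 11. DESeq2 1.42.0 was an alternative. For edgeR, an SE is the log2 change over the root of its F statistic. Single values of each sample were tested by an exact permutation, two-sided, over 462 splits (smallest p 0.00433). The Benjamini-Hochberg adjustment covered all identifiers or barcodes tested, or the family stated, with a threshold of 0.05. The two-sided p doubles the smaller tail; it replaced, after results had been seen, a p that counted splits by the size of the difference. Tests were checked on simulated data, where the test of single barcodes found only very large changes, so that its lack of calls says little. Scripts ran in R 4.3.3 and in Python 3.11.15 with scipy 1.17.1, numpy 2.4.6 and pandas 2.3.3.

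The line and the comparisons were chosen with earlier results of these data known. Barcodes named are the largest of each sample, the 3 with most reads in all, those in all 11 samples (there were none) and those called; others are said to be chosen after their values were seen. Identifiers named are those at rank 1 to 3, and up to 3 that lie 1 base from AACC and share the other bases with an AACC barcode.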

Additional observations from a re-analysis of the deposited data

Results flagged for a closer look

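Among 30 groups of values, 4 had a sample far outside the others, where chance flags about 1 in 20 groups, or 1.5; these groups of values are not independent. In 6OHDA sample 4 the median AACC colony was 0.0240% of the AACC reads, above the other 4 samples of its group. In 6OHDA sample 5 the largest AACC barcode held 5.49% of the AACC reads. In 6OHDA sample 2 there were 2.37 AACC reads per GTTG read, against 1.11 to 1.35 in the other 6OHDA samples. In 6OHDA sample 3 the median AACC colony was 0.630 times the median GTTG colony.

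With all samples, the difference in median colony size between the treatments was not the same for AACC and GTTG: their log2 ratio differed by -1.62 (exact permutation, adjusted p = 0.0173). This comparison was added after the values had been seen. It missed the threshold at a minimum of 100 reads (log2 difference -0.77, exact permutation, adjusted p = 0.0866). The ratio was under 1 in 5 of 5 6OHDA samples and in 1 of 6 vehicle samples.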

How the results depend on the processing

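Of 293 recomputed values, 251 kept their direction and their side of the threshold. DESeq2 gave -0.97 for reads, which passed, and called 1 AACC barcode. TMM scaling turned the colony number to -0.68, and mean colony size passed without thinning (-1.05). A minimum of 100 reads left the median size (-1.04), its part of the AACC reads (-0.67) and the median against GTTG (-0.77) short of the threshold. Against CCTT, the colony ratio turned to -0.0066 without thinning and -0.082 at a minimum of 2 reads, while the median ratio turned to 0.053 at 2 reads and passed at 30 (-0.26). Without the 2 deepest vehicle libraries, chosen after the data were seen, 7 further values passed: effective number (0.72), the 10 largest barcodes (-5.48 points), colonies against all other lines (-0.61), reads (-2.81) and colonies (-1.74) against GTTG, recurrence (-6.29 points) and overlap (3.41 points). Since these 2 libraries lay nearest to the 6OHDA samples, leaving them out widens most differences by construction. The causes were not tested.

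With 1 sample left out at a time, values ranged from -0.94 to -0.64 for reads, -1.42 to -0.98 for mean size, -1.67 to -1.28 for median size and -1.24 to -0.94 for its part of the AACC reads. Ratios ranged from -0.51 to -0.31 for colonies against all other lines, -2.43 to -1.66 for reads against GTTG, -1.46 to -0.96 for colonies against GTTG and -0.017 to 0.14 for colonies against CCTT and 0.12 to 0.29 for reads against CCTT. The effective number ranged from 0.22 to 0.55 and the 10 largest barcodes from -4.64 to -2.24 points. The overlap ranged from -0.027 to 1.79 points. The median against GTTG passed in all 11 of these. Both other medians passed in 7 of 11, and in 10 of 11 by the p first computed, which counted splits by the size of the difference. By that p the calls with all samples were the same, with adjusted p of 0.0303 for both medians and 0.0346 for the median against GTTG, and the overlap passed in 5 of 11 in place of 0.

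Both groups number their samples, but same-numbered samples did not deviate together (correlations from -0.19 to 0.21, and 1 of 5 was best correlated with its own number), so the numbers were not taken as pairs. With a replicate block over numbers 1 to 5, where the smallest exact p is 0.0625, the median size (-1.37), its part of the AACC reads (-1.02) and the median against GTTG (-1.50) no longer passed. The single AACC barcodes then lay above 0 in 170 cases and below in 79 (median 2.26, against 3.71 over all barcodes tested). All sizes are read shares: neither cell numbers nor clones under 1.55 RPM were measurable.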
